A study of Mus musculus with 18 samples.

Results

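The glutathione transferase genes of the mu and pi classes were examined in peak lists from ChIP-seq of mouse liver, which locates DNA bound by a protein or carrying a histone mark. The members were the 8 listed genes Gstm1, Gstm2, Gstm3, Gstm4, Gstm6, Gstm7, Gstp1 and Gstp2, 6 of the mu class and 2 of the pi class, out of 21887 protein-coding genes. Each gene was measured over its RefSeq span with 5 kb on either side, by its peaks in each library and the length, in bp, that they covered. The study set livers of 8-week-old C57BL/6 mice with 2 floxed Ctcf alleles and no Alb-Cre transgene (CTCF fl/fl Albcre-, called WT here) against livers with the same alleles and the transgene (CTCF fl/fl Albcre+, called KO). Both groups therefore carry the floxed alleles. Alb-Cre, driven by the albumin promoter, acts in hepatocytes, and which other liver cells keep Ctcf was not measured. The 18 libraries covered H3K27ac (3 livers of each genotype), PPARg and CTCF (2 of each), and H3K4me3 and H3K27me3 (1 of each). The mice of the CTCF libraries and of PPARg WT 2, KO 7 and KO 8 were males after an overnight fast, while sex and feeding were not given for the other libraries. The culture notes of those other libraries describe neural stem cells, although their tissue label is liver.

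Glutathione transferases join the tripeptide glutathione to reactive electrophiles, which makes them soluble and ready for export. In rodent liver the mu and pi enzymes are abundant, and their genes are classic targets of NRF2, a factor that binds antioxidant response elements with small MAF proteins. Both families lie in tandem clusters of similar genes, and several members differ between male and female liver. CTCF binds insulators and many promoters, PPARg is a nuclear receptor of fat storage, H3K27ac marks active enhancers and promoters, H3K4me3 marks active promoters, and H3K27me3 marks Polycomb repression.

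All 8 genes are read from the minus strand of mm10. The mu genes lay on chromosome 3 in the order Gstm7 (chr3:107926334-107931877), Gstm6 (chr3:107938847-107953641), Gstm3 (chr3:107963696-107969174), Gstm2 (chr3:107981702-107986420), Gstm1 (chr3:108012250-108017973) and Gstm4 (chr3:108030571-108045179). The pi genes lay on chromosome 19, Gstp1 at chr19:4035411-4037912 and Gstp2 at chr19:4040288-4042221. The windows of Gstp1 and Gstp2 shared 7625 bp and those of Gstm7 and Gstm6 shared 3031 bp, so a peak there is counted for both genes of the pair and these genes are not independent. Over the 8 windows, with shared regions counted once, there were 20 H3K27ac regions, 20 PPARg regions, 6 CTCF regions, 9 H3K4me3 regions and 0 H3K27me3 regions.

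The sequences upstream of the start sites were read because peaks of PPARg, CTCF and H3K4me3 lay at some of them and not at others. RefSeq promoters of build mm10 matched all 8 genes, with 13 start sites in all. Each line below gives the 250 bases before a start site, 5′ to 3′ on the minus strand. Capitals mark matches to 4 kinds of motif, each searched on both strands. Antioxidant response element cores were searched as TGACNNNGC or TGAGNNNGC, and a palindrome of the STAT type as TTCNNNGAA. The core letters of the sequence that CTCF recognises were searched as AGGNGGC. The box bound by the TATA-binding protein was searched as TATAAA. No motif overlapped another in the members. TGAGNNNGC and AGGNGGC were added after the sequences had been seen. The first set holds promoters (250 bases before to 50 after a start) that CTCF peaks touched in both WT livers: Gstm1 (chr3:108017974-108018223), the outer start of Gstm6 (chr3:107953467-107953716), an inner start of Gstm6 (chr3:107943735-107943984) and Gstp1 (chr19:4037913-4038162). Gstp2 (chr19:4042222-4042471) is shown with them as the close copy of Gstp1 whose promoter no CTCF peak touched. A further start of Gstm1, inside the gene, was also touched by CTCF in both WT livers and is not printed.
Gstm1: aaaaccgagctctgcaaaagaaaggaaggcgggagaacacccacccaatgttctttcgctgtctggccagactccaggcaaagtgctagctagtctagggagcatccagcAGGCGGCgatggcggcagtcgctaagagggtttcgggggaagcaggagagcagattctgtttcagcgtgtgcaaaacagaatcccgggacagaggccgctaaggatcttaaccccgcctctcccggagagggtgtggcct
Gstm6 outer start: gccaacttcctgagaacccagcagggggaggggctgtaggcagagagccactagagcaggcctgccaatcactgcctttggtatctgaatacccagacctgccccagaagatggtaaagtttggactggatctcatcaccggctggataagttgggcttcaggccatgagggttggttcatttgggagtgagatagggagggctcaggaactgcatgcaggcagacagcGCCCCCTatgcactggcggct
Gstm6 inner start: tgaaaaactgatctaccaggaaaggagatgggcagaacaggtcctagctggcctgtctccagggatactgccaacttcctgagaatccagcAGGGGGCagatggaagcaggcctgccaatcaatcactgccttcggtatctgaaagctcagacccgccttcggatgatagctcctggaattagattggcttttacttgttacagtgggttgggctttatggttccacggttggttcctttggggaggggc
Gstp1: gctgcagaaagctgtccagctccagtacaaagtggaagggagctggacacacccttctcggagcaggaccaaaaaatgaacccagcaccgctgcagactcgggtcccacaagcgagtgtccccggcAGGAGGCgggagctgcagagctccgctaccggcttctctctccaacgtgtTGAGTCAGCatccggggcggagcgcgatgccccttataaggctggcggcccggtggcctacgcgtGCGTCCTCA
Gstp2: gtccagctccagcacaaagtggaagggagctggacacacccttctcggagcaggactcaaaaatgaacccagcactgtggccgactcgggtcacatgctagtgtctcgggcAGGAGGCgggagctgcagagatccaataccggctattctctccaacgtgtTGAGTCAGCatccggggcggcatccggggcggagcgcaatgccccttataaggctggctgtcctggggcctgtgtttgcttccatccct

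The second set holds promoters that PPARg peaks touched in both KO livers: Gstm7 (chr3:107931818-107932067) and Gstm4 (chr3:108044860-108045109), which were also touched in both WT livers, and Gstm3 (chr3:107969175-107969424), which was not.
Gstm7: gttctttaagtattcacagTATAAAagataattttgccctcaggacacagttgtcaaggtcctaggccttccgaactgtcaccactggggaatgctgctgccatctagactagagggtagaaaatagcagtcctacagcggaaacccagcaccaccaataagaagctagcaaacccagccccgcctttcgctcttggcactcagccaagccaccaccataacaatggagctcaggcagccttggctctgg
Gstm4: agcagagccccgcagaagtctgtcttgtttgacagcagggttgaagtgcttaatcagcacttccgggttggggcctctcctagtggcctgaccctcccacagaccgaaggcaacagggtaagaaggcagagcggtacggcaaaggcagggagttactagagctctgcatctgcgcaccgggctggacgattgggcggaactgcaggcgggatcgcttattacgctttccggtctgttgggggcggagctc
Gstm3: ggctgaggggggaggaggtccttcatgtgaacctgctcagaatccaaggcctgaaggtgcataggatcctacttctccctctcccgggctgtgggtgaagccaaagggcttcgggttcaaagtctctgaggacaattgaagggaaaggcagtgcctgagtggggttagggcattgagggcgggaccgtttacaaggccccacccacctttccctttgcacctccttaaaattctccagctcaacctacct

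The upstream sequences of Gstp1 and Gstp2 aligned with 78.5% identity, against 46.6 to 54.3% for every other pair of members. Both held the TGAGNNNGC core inside the same run of letters, 74 bases before the Gstp1 start and 89 bases before the Gstp2 start, and Gstp1 held a further match 9 bases before its start. The TGAC form was found once, 129 bases before an inner start of Gstm7. In all, 10.2% of 32851 RefSeq promoters held TGACNNNGC and 14.4% held TGAGNNNGC over the same length, so such matches are common. The letters AGGNGGC, held by 25% of all promoters, stood before 5 of the 13 start sites: the 4 printed above whose promoters CTCF touched, and Gstp2. The inner start of Gstm1, also touched by CTCF, did not hold them. The half-site AGGTCA, which nuclear receptors such as PPARg bind as a repeat, was in 14.0% of all promoters and before none of the 13 start sites. These are matches of letters alone and not measured sites.

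The lists differed in size between genotypes, which bears on every covered length below. PPARg peaks covered 9.0 Mb (WT 2) and 6.90 Mb (WT 4) against 20.8 Mb (KO 7) and 21.1 Mb (KO 8), a mean ratio of 2.63. H3K27ac peaks covered 78.2 to 91.5 Mb in 5 libraries and 126 Mb in KO 4, which stood apart. The WT livers had 27585 and 24566 CTCF peaks, against 18597 and 20323 for the KO livers, so many CTCF peaks were still called in KO livers; the Ctcf protein itself was not measured. H3K4me3 covered 21.7 Mb in WT and 19.1 Mb in KO. All 8 hepatocyte markers listed (Alb, Apoa1 and Ttr among them) carried H3K27ac in every library. The lists give no read depth, which is therefore unknown, and precision rests on the few libraries. Nothing in the labels says how the animals relate to each other, and p-values measure only the spread between these libraries.

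Gstm3, a mu enzyme, was the member with the largest difference in H3K27ac. Peaks covered 2114, 2934 and 1971 bp of its window in WT 1, WT 2 and WT 4, against 4891, 6376 and 7190 bp in KO 2, KO 3 and KO 4. All 3 KO livers lay above all 3 WT livers, and the mean covered share was 15.1% ± 3.36 (SD, n = 3) in WT and 39.7% ± 7.53 (SD, n = 3) in KO. The difference of 24.6 percentage points (SE 4.20) did not pass Benjamini-Hochberg adjustment over 14880 genes (limma adjusted p = 0.634). No gene did: limma called 0 genes higher (0%) and 0 lower (0%), with 923 at an unadjusted p under 0.05. The highest peak fold (enrichment over background) was 3.46, 4.29 and 3.26 for WT livers and 4.54, 3.42 and 4.61 for KO livers, which overlap. The difference in covered length was 21.3 percentage points without KO 4, but 4.65 where peaks were limited to a −log10 q of at least 5, when only 1 WT and 2 KO livers kept any peak in the window.

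The difference in covered length lay both inside the gene and upstream of the Gstm3 start. Peaks covered 1209, 1441 and 1258 bp of the gene span in WT livers, against 1715, 3851 and 3768 bp in KO livers. The region chr3:107971317-107975231, whose middle is at −4100 bp from the start (negative is upstream), runs past the end of the window, and over its whole extent its peaks measured 361, 1782 and 497 bp in the WT livers. In the KO livers the same region carried single peaks of 3165, 3422 and 3225 bp, all longer than any WT total. Of these KO peaks 2572, 2365 and 2706 bp lay inside the window. The highest folds in this region overlapped, at 2.90, 3.78 and 2.84 for WT livers and 3.58, 3.27 and 2.75 for KO livers. Inside the gene, the region chr3:107963598-107967584 held 1155, 1079 and 1258 bp in WT livers, against 1340, 3604 and 3114 bp in KO livers. The promoter (250 bases before to 50 after the start) was touched by a peak in 1 of 3 WT and 3 of 3 KO libraries. No H3K4me3 peak lay in the Gstm3 window in either genotype.

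Gstm2, the neighbouring mu enzyme, had 2905, 4066 and 2573 bp of H3K27ac in WT, against 4169, 4500 and 4452 bp in KO. The difference was 8.10 percentage points (SE 2.81, limma adjusted p = 0.767). The groups did not overlap, but this rested on a region called in KO 3 and KO 4 alone (718 and 869 bp). Over the region of the gene and its start, KO livers had 4169, 3782 and 3583 bp, which overlap with WT. With the −log10 q limit the difference was −1.09 percentage points. Gstp1, the pi enzyme, had 6379, 6752 and 6659 bp in WT, against 8385, 8266 and 7562 bp in KO, again without overlap. Its difference was 11.8 percentage points (SE 2.04, limma adjusted p = 0.634). With 10 kb on either side the difference was 5.25 percentage points and the groups overlapped (43.2 to 59.2% in WT, 55.4 to 57.5% in KO). The gene span itself was fully covered in all 6 libraries. Its highest fold overlapped, at 4.98 to 6.35 for WT livers and 4.64 to 5.27 for KO livers.

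Gstm7 was the reverse case: it had 2037 to 2186 bp in WT and 1784 to 2015 bp in KO, a small difference of −1.19 percentage points (adjusted p = 0.806, limma). The values of Gstm1 (6599 to 9095 bp in WT, 8337 to 10288 bp in KO), Gstm4 (8761 to 11943 and 10198 to 12983 bp), Gstp2 (5974 to 7242 and 6912 to 8723 bp) and Gstm6 (522 to 2538 and 542 to 3444 bp) overlapped between genotypes. So 3 of 8 members had every KO library above every WT library and 1 had every KO library below, against 10.2% and 1.57% of all 14880 genes tested. The median difference over the 8 members was 8.30 percentage points, against 0.92 over all genes. Percentage points depend on how much of a window was covered in WT. As KO to WT ratios of mean covered length, Gstm3 stood at 2.63, Gstm2 at 1.37 and Gstm7 at 0.91. The remaining members lay between 1.17 and 1.22. The median ratio over 14112 genes with a WT peak was 1.13, and that of total covered length was 1.16. By highest fold no member was called, with 0.41% of 14888 genes called higher and 0.0605% lower (limma).

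**Figure D1:**
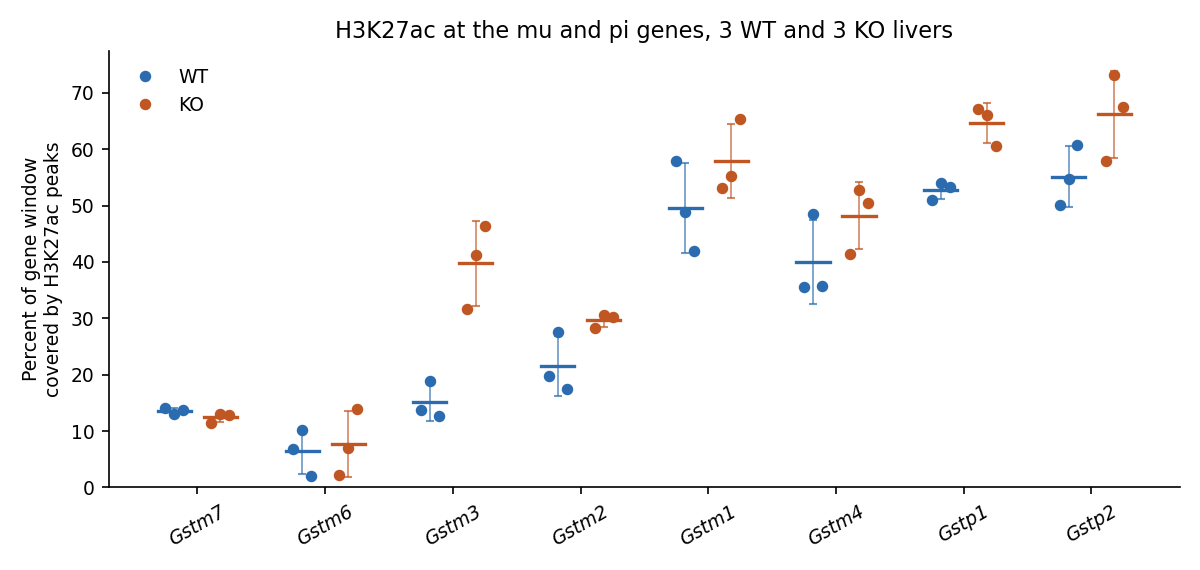
Percent of each gene window covered by H3K27ac peaks (vertical axis) for the 8 members (horizontal axis); points are livers (3 WT in blue, 3 KO in orange), horizontal lines are means and bars are 1 SD. The Gstm3 KO points all lie above the WT points, with means of 39.7% and 15.1%, and Gstm1, Gstm4, Gstm6 and Gstp2 overlap.

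Taking each cluster as a whole, with shared base pairs counted once, H3K27ac covered 20.9 to 28.9% of the mu windows in WT and 27.7 to 36.9% in KO. It covered 52.5 to 59.4% of the pi windows in WT and 64.4 to 69.0% in KO, so the pi windows were the more densely covered in both genotypes. This did not hold gene by gene. The Gstp2 span itself carried no H3K27ac except 298 bp in KO 3, while the span of the mu gene Gstm1 was 92.6 to 100% covered. Of the 20 H3K27ac regions, 11 were called in all 6 libraries, 0 in every WT and no KO library, and 0 in every KO and no WT library. In the whole genome these classes held 39.6%, 0.173% and 1.08% of 57360 regions. The other 9 regions were called in some libraries only. Among them, those at the Gstp2 promoter, near the outer Gstm6 start and between Gstm3 and Gstm2 (chr3:107976988-107978355) were called in KO 3 and KO 4 and in no WT liver. The KO 3 peak near the outer Gstm6 start lay from −985 to −418 bp, so only the KO 4 peak touched that promoter.

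Other gene lists were read beside these values. Markers of stellate cells, the fat-storing pericytes of liver, summed to 18.3 to 36 kb of H3K27ac in WT and 36.7 to 82.9 kb in KO. At 4 of 8 genes (Des, Pdgfrb, Col1a1 and Dcn) every KO library was above every WT library, beside 10.2% of all 14880 genes tested. Acta2 had a peak in KO 4 alone. Kupffer cell markers summed to 7.28 to 13.6 kb in WT and 9.61 to 18.5 kb in KO, with Vsig4 and Marco at 0 in all libraries. Endothelial markers (135 to 154 and 128 to 204 kb), lymphocyte markers (4.38 to 6.26 and 3.49 to 12.1 kb) and hepatocyte markers (113 to 134 and 114 to 131 kb) overlapped, while cholangiocyte markers did not (16.5 to 18.4 and 18.9 to 26 kb). The cholangiocyte markers Krt19, Krt7, Epcam and Cftr and the lymphocyte markers Cd3e and Cd8a were at 0 in all libraries. In whole liver, a change in the share of a cell type and a change of the mark within its cells cannot be told apart. The part of other cell types in the values of the members was not tested.

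Genes that differ between the sexes in liver were read in the same way. Of 13 male-biased genes tested, 9 had less H3K27ac in every KO library than in every WT library and 0 had more. Over all 14880 genes tested these shares were 1.57% and 10.2%. The male-biased list summed to 126 to 140 kb in WT and 86.7 to 106 kb in KO. Elovl3, a fatty acid elongase, had 4939 to 5533 bp in WT and 535 to 1132 bp in KO (adjusted p = 0.106, limma). Of 9 female-biased genes tested, 2 had more in every KO library and 0 less, beside 10.2% and 1.57% of all genes. Each H3K27ac library had 7 to 13 peaks on chromosome Y. The part of this pattern in the values of the GST genes was not tested.

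PPARg peaks covered more of the window in both KO livers than in either WT liver at 5 of the 8 members: Gstm7, Gstm4, Gstp2, Gstm3 and Gstm2. Gstm7, whose start site lies under a PPARg peak, had 716 bp (WT 2) and 518 bp (WT 4) against 2055 bp (KO 7) and 1769 bp (KO 8). Its highest fold was 14.1 and 10.0 for the WT livers, against 26.1 and 22.5, and both measures separated the genotypes. The covered share rose from 3.97% ± 0.90 to 12.3% ± 1.3 (SD, n = 2 each), a difference of 8.33 percentage points (SE 0.92, limma adjusted p = 0.0242). The fold difference did not pass (1.03 on the log2 scale, SE 0.28, adjusted p = 0.0835, limma).

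Gstm4 had 923 and 743 bp in WT, against 1725 and 1800 bp, also mainly in a peak over its start site. Its covered share rose by 3.78 percentage points (SE 0.38, limma adjusted p = 0.0223), while its folds of 19.8 and 7.55 (WT) and 22.5 and 10.7 (KO) overlapped. Gstp2 had 0 and 496 bp in WT, against 2651 and 1966 bp, and rose by 17.3 percentage points (SE 2.87, limma adjusted p = 0.0392). Its gain lay almost wholly in the region chr19:4044777-4047381, whose middle is at −3858 bp from the Gstp2 start. There, peaks of 2599 and 1825 bp in KO met 0 and 358 bp in WT.

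Gstm3 needs care, because the edge of its window cut a peak. Its window held 0 bp in both WT livers and 819 and 1693 bp in KO, which gave a called difference in highest fold (3.63 on the log2 scale with genes without a peak set to 1, SE 0.18, adjusted p = 0.0089, limma). However, WT peaks of 479 and 145 bp began 20 and 282 bp beyond the window's end, while the wider KO peaks of 799 and 1826 bp at the same place reached into it. As a region, chr3:107973169-107974994 was called in all 4 libraries, with folds of 6.91 and 4.68 (WT) and 12.3 and 12.4 (KO). It overlapped the upstream H3K27ac region of Gstm3 that was longer in KO. With 10 kb on either side the window held 479 and 145 bp in WT against 1537 and 2513 bp, and the difference in highest fold was 1.12 and no longer called (adjusted p = 0.0712, limma; 9.21e-05 to 0.0712 over 11 alternatives). Another 2 PPARg regions in the window, at the start site and at −3305 bp from it, were called in both KO livers and in neither WT liver.

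Gstm2 had 542 and 317 bp in WT, against 610 and 849 bp, with folds of 8.26 and 6.33 against 8.02 and 6.84 that overlapped. Gstm1 had 398 and 171 bp in WT against 278 and 465 bp, Gstp1 had 0 and 859 against 947 and 360 bp, and Gstm6 had a peak in KO 8 alone. None of these 4 passed the test.

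In all, 3 of 8 members were called higher in PPARg covered share (Gstm7, Gstm4 and Gstp2) and 0 lower, beside 28.5% of 9023 genes called higher and 0.266% lower. Every KO library was above every WT library at 5 of 8 members, beside 70.5% of all genes, and below at none, beside 1.31%. By highest fold 1 of 8 was called higher, beside 28.2% of genes higher and 0.687% lower. These shares were near those of all genes, and nothing particular to the mu and pi genes is read from them. When each list was divided by its total covered length, no gene was called (2087 at an unadjusted p under 0.05, limma). Gstm7 then differed by 1.3 percentage points and Gstp2 by 9.01, while Gstm4 turned to −1.23 and Gstm2 to −1.80. The count of called genes was also 0 without WT 2 or without WT 4 (2589 and 2250 at an unadjusted p under 0.05). The WT 4 list came from another library kit and a looser q threshold than the other 3 lists. Without it the differences were 7.69 percentage points for Gstm7, 3.41 for Gstm4 and 19.3 for Gstp2 (adjusted p 0.163, 0.149 and 0.176, limma). With peaks limited to a −log10 q of at least 5, Gstm7 and Gstm4 were still called (differences of 8.33 and 3.27 points) and Gstp2 was not.

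**Figure D2:**
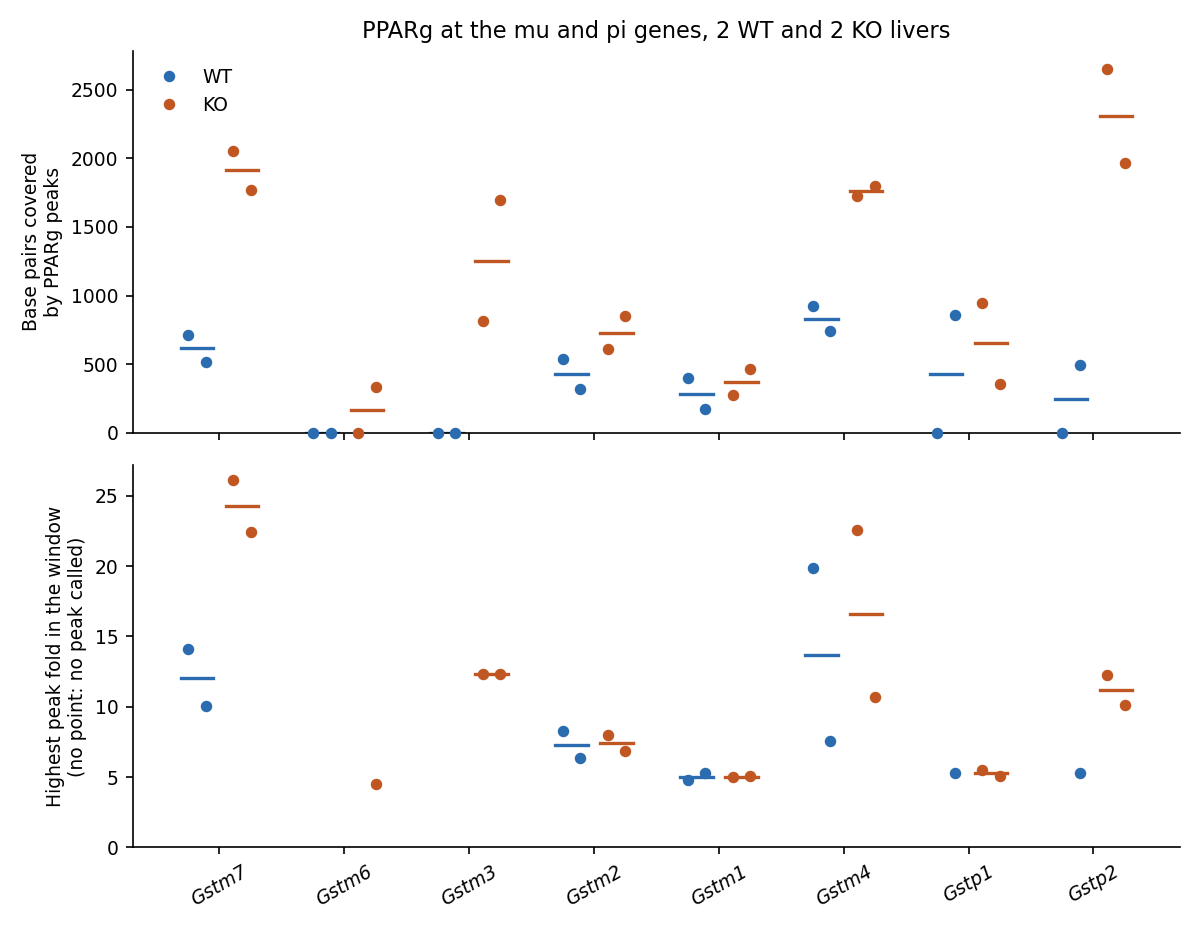
PPARg at the 8 members: base pairs covered (upper panel) and highest peak fold in the window (lower panel, no point where no peak was called), with points for livers (2 WT in blue, 2 KO in orange) and lines for means. Gstm7 separates the genotypes in both panels, at folds of 10.0 and 14.1 against 22.5 and 26.1, whereas Gstm2 and Gstm4 overlap in fold.

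Of 20 PPARg regions in the windows, 4 were called in all 4 libraries, 3 in both KO and no WT library and 0 in both WT and no KO library. Over the genome these classes made up 29.8%, 17.9% and 1.05% of 33952 regions. The 4 shared regions, where every library gives a peak height, lay at the starts of Gstm7 and Gstm4, upstream of Gstm3 and inside Gstm2. Folds were made separately for each library, so their levels may not be strictly comparable between libraries. The mean KO fold was 2.01 times the WT fold at Gstm7, 2.13 times upstream of Gstm3, 1.21 times at Gstm4 and 1.02 times at Gstm2. Both KO folds were above both WT folds at 2 of these 4. Over 10131 shared regions of the genome the median ratio was 1.59 (quartiles 1.18 and 2.21), and 67.5% had both KO folds above both WT folds. The ratios at Gstm7 and upstream of Gstm3 lay between that median and the upper quartile, that at Gstm4 just above the lower quartile and that at Gstm2 below it. Of the 20 PPARg regions, 14 were touched by H3K27ac peaks of all 6 H3K27ac libraries, the shared regions of Gstm7, Gstm2 and Gstm4 among them. The same share was not measured over all PPARg regions of the genome, so nothing particular to these genes is read from it.

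**Figure D3:**
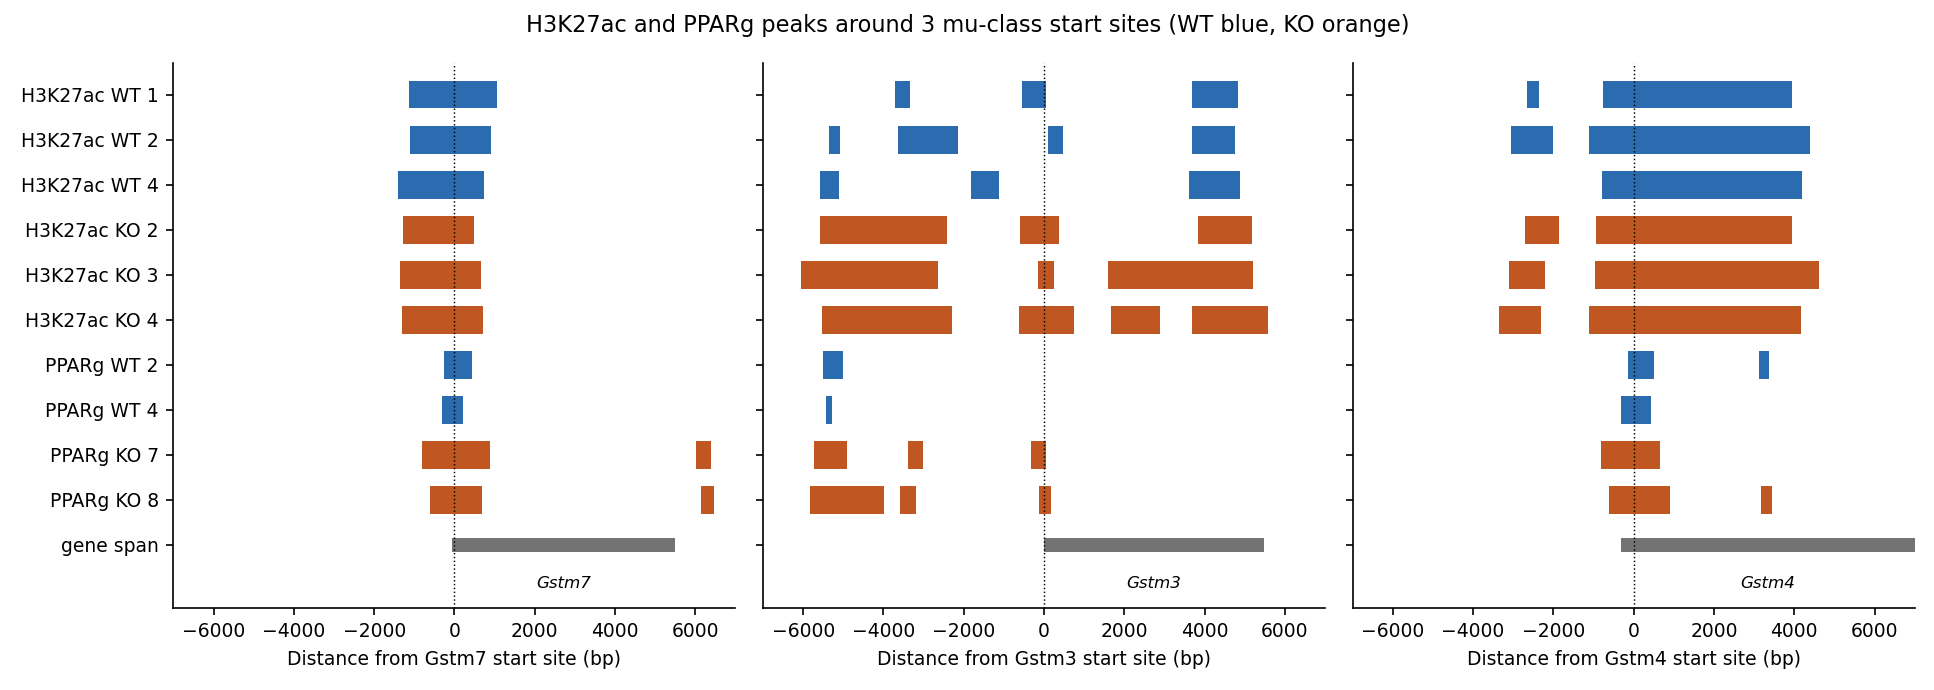
Peaks of each H3K27ac and PPARg library (rows, WT blue, KO orange) drawn by distance in bp from the start sites of Gstm7, Gstm3 and Gstm4 (negative is upstream), with gene spans in grey. Upstream of Gstm3 the KO livers carry H3K27ac peaks of 3165 to 3422 bp and wider PPARg peaks, and at Gstm7 and Gstm4 the PPARg peaks over the start are wider in KO.

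CTCF peaks were called at 4 of 8 members, Gstm6, Gstm1, Gstp1 and Gstp2, and in no library at Gstm2, Gstm3, Gstm4 and Gstm7. Beside this, 11643 of 21887 genes had a CTCF covered share that varied between libraries, and Gstp1 and Gstp2 share a peak. Gstm1 had a single peak at its promoter of 663 and 399 bp in the WT livers, against 277 and 335 bp, the last of which ended at −13 bp from the start. Its folds were 6.41 and 8.07 (WT) and 5.08 and 5.55 (KO), so both measures were lower in KO without overlap. The difference in covered share was −1.43 percentage points (SE 0.71, adjusted p = 0.604, limma), and 0.68 with lists cut to equal length.

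Gstm6 carried 3 CTCF regions. The one at its outer start (chr3:107953185-107953730) had folds of 14.5 and 10.9 (WT) and 7.79 and 7.78 (KO), again without overlap. A second, inside the gene near its end (chr3:107939163-107940313), had folds of 10.9 and 12 (WT) and 8.49 and 12.5 (KO), which overlapped. The third, at the inner start (chr3:107943730-107944020), was called in both WT livers with folds of 4.94 and 4.33 and in neither KO liver. An H3K27ac peak near that inner start was called in 2 of 3 WT and 0 of 3 KO livers.

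At Gstp1 the CTCF peak at the promoter measured 333 and 199 bp in WT, 268 bp in 1 KO liver and 0 bp in the other. Gstp2 had 861 and 485 bp in WT, against 268 and 221 bp, but its values include the Gstp1 promoter peak. Its own CTCF region (chr19:4045828-4046355), upstream of its start and inside the PPARg region described above, was called in both WT livers and 1 KO liver. The difference at Gstp2 was −3.59 percentage points (SE 1.28, adjusted p = 0.499, limma). It turned to 0.15 with 10 kb on either side and to 2.05 with lists of equal length.

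No member was called for CTCF by either measure. Over all 11643 genes, limma called 0% higher and 0% lower in covered share (1228 genes at an unadjusted p under 0.05), and 0.103% higher and 6.38% lower in highest fold. Every KO library was below every WT library at 2 of the 4 members with a peak, Gstm1 and Gstp2, beside 37.1% of genes below and 4.19% above. Of the 6 CTCF regions 3 were called in all libraries and 1 in both WT and no KO library, where the genome had 53.1% and 9.87% of 30026 regions, with 0.167% in both KO and no WT library. At the 3 shared regions the KO to WT ratio of folds was 0.73 (Gstm1 start), 0.61 (Gstm6 outer start) and 0.92 (inside Gstm6), beside a median of 0.80 over 15934 shared regions. Both KO folds were below both WT folds at 2 of these 3, beside 50.1% of the shared regions of the genome. The shares at these few members and regions were again near those of all genes, and nothing particular to them is read from this.

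H3K4me3, with 1 library per genotype and so without a test, marked the starts of Gstp1 and Gstm1 most broadly. At Gstm1 it covered 4322 bp in WT and 3182 bp in KO, with highest folds of 12.6 and 9.93. At Gstp1 it covered 2433 and 2253 bp, with folds of 12.6 and 10.4. The Gstp2 start carried no H3K4me3 peak in either liver, and the Gstp2 window took its 2433 and 2253 bp from the same Gstp1 peak. Gstm7 had 623 and 378 bp, Gstm2 had 260 and 181 bp, and Gstm4 had 798 bp in WT and no peak in KO. Gstm6 and Gstm3 had none in either liver.

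All 6 members with H3K4me3 had less covered length in KO, where Gstp1 and Gstp2 share 1 peak, beside 69.2% of the 13268 genes with a peak. Of these members 2, Gstm7 and Gstm4, were lower by 1.5 times or more. Of 13268 genes with a peak, 11% had at least 1.5 times more in WT and 9.87% at least 1.5 times more in KO. All of these values come from 1 pair of livers, and total covered length was 0.88 times as great in the KO list. H3K27me3 covered no base pair of any member in either genotype. Only 3538 of 21887 genes had an H3K27me3 peak in either library, so its absence is common. Of those 3538 genes, 55.1% had at least 1.5 times more in KO and 24% in WT.

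**Figure D4:**
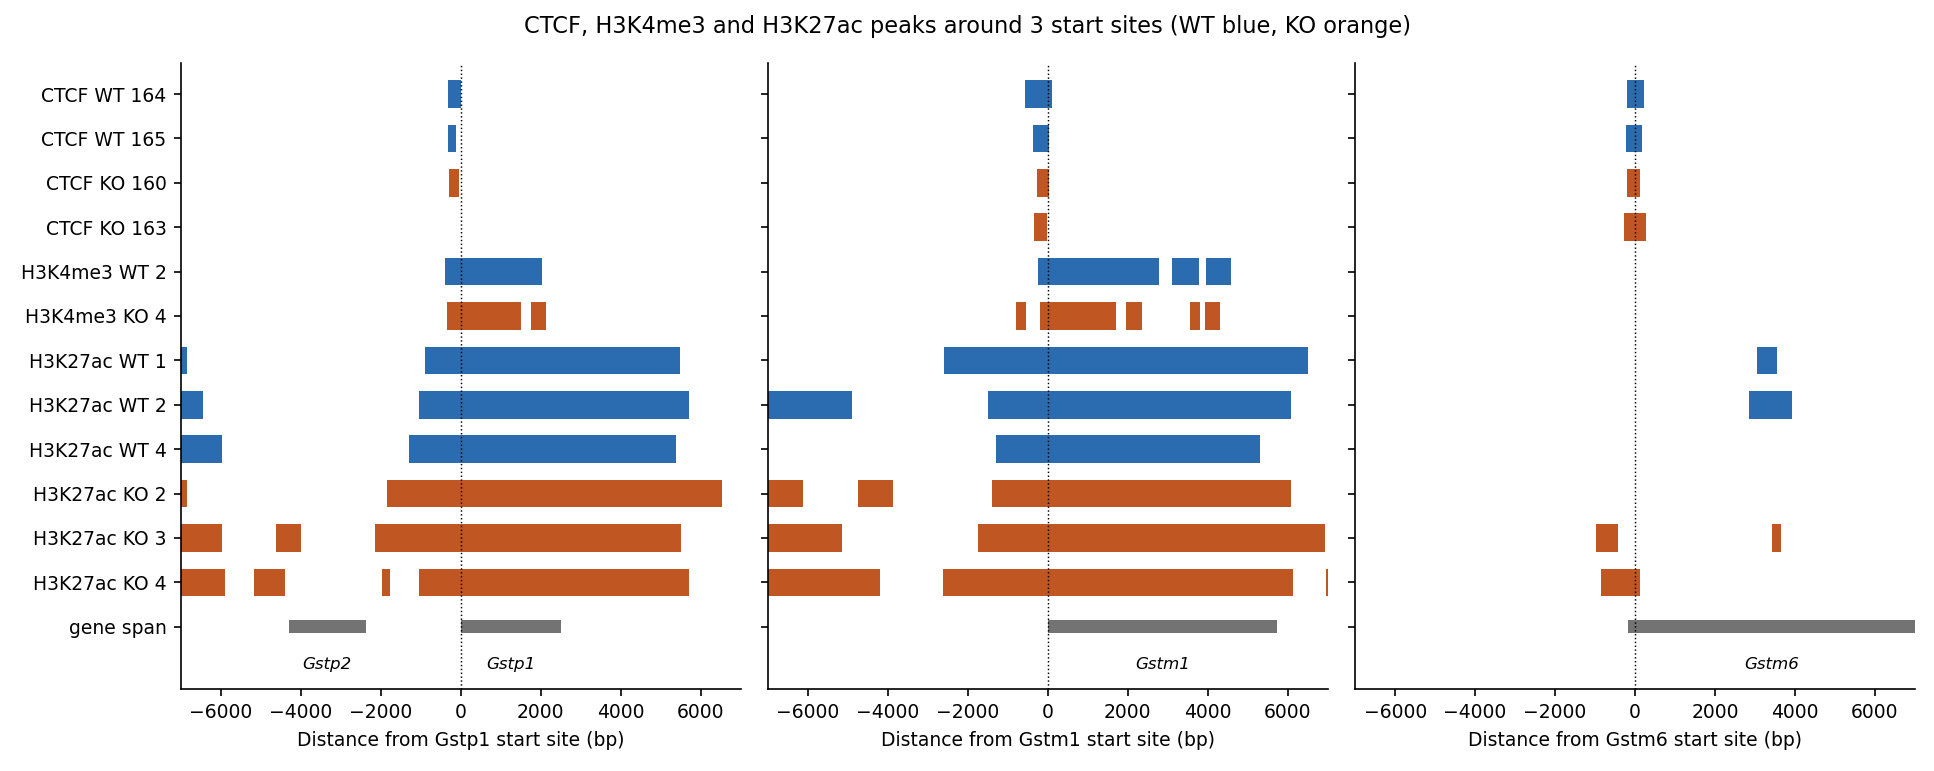
Peaks of each CTCF, H3K4me3 and H3K27ac library (rows, WT blue, KO orange) by distance in bp from the starts of Gstp1, Gstm1 and the outer start of Gstm6 (negative is upstream), with gene spans in grey. CTCF lies at all 3 promoters, missing in 1 KO liver at Gstp1, and the neighbouring Gstp2 start, at the left end of its grey span, carries neither CTCF nor H3K4me3.

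PPARg covered more of many other genes of glutathione chemistry in KO livers. Over all 9023 genes tested, 28.5% were called higher and 0.266% lower. Of 12 genes of other transferase classes tested, 8 were called higher in PPARg covered share and 0 lower: Gstp3, Gsta2, Gsta3, Gstt1, Gstt2, Gstt3, Gstz1 and Mgst3. Gstp3, the pi copy next to Gstp2, had 974 and 1099 bp in WT, against 3945 and 3485 bp, and rose by 22.1 percentage points (limma adjusted p = 0.0169). Of 16 genes of glutathione synthesis and use tested, 8 were called higher and 0 lower. They include Gclc and Gclm, the subunits of the enzyme that starts glutathione synthesis, Gsr, which restores reduced glutathione, and the conjugate exporters Abcc2 and Abcc3, beside Ggt6, Gpx1 and Cth. Of 17 NRF2 targets and regulators tested, 7 were called higher and 0 lower, among them the nuclear receptors Nr1i2, Nr1i3 and Hnf4a, beside Ahr, Ephx1, Aox1 and Ces1d. Nfe2l2, which encodes NRF2, had 1484 and 1710 bp in WT, against 2248 and 2601 bp (adjusted p = 0.0598, limma). The median differences of the 3 lists were 7.09, 4.92 and 5.33 percentage points, against 1.46 over all genes and 2.91 over the 8 members. Of the 8 hepatocyte markers 5 were called higher and 0 lower, with a median of 9.95, so such gains were not limited to glutathione genes. No call remained when peak lists were divided by their total length.

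In H3K27ac the lists of other transferase, glutathione and NRF2 genes had no called gene. Every KO library was above every WT library at 1 of 17 other transferase genes (Gstm5), 0 of 17 glutathione genes and 2 of 18 NRF2 genes (Maff and Srxn1). It was below at 0, at 1 (Cbs) and at 1 (Mafg). Over all 14880 genes tested the shares were 10.2% above and 1.57% below. The median differences of these lists were 0.55, −1.08 and 0.95 percentage points, against 8.30 for the members and 0.92 for all genes. Such differences depend on the share covered in WT, and ratios for the members are given above. The difference between the lists was not tested. Gsta3 had 9232 to 16004 bp in WT and 9525 to 16807 bp in KO, and Gclc 11037 to 11380 and 9665 to 14097 bp, both overlapping. Nqo1, a standard NRF2 target, had 1699 to 3264 bp in WT and 3042 to 4227 bp in KO.

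Among 22 protein-coding neighbours within 100 kb of a member, 5 of 21 with H3K27ac values had every KO library above every WT library: Ndufv1, Cdk2ap2 and Pitpnm1 beside the pi genes, and Eps8l3 and Gstm5 beside the mu genes. The share of all genes was 10.2%. Eps8l3 and Gstm5 share 1 peak of 0 to 697 bp in WT and 747 to 1403 bp in KO. On the other side of the mu cluster Ampd2, Gm12500, Gnat2 and Gnai3 overlapped between genotypes. In PPARg 5 of 14 neighbours tested were called higher, Gstp3, Ampd2, Tmem134, Cabp4 and Gpr152, beside 28.5% of all genes. In CTCF 4 of 18 were below in every KO library, beside 37.1% of all genes, among them Aldh3b3 with 605 and 501 bp in WT livers and 0 in both KO livers. The windows of adjoining neighbours overlap, among them those of Cdk2ap2 and Pitpnm1, and those of Tmem134, Cabp4 and Gpr152. A peak there is counted for each of them, so these are not counts of independent genes.

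Over the 18 libraries, each divided by its mean over all genes, the profile of covered share of Gstm1 was most like those of Mocs1 (Pearson r = 0.953), Sf3b1 (0.951), Nr2f2 (0.943), Cic (0.942) and Sspo (0.942). Profiles among the most like that of Gstp1 were those of P2ry2 (0.945), Tmem222 (0.913), Stat6 (0.905) and Bet1l (0.897), among 11693 genes compared. Among the members themselves the closest pair was Gstm2 and Gstm4 (r = 0.952), and Gstm6 correlated negatively with each of the others (r from −0.499 to −0.247). These values describe likeness across targets that differ strongly in level, share libraries, and carry no test.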

How the data were processed

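Peak lists of 18 libraries were used; counts of reads were not part of them. Per the submitters' processing notes, the tools were MACS2 2.1.2, BWA 0.7.12, deepTools 3.1.3 and Picard 1.77, with build mm10. The deposited peak lists give each peak a fold enrichment over background, a ratio, and a −log10 q, both made by the authors separately for each library; the control is not given in the sources used here. Depth cannot be had from these lists. Only the assembled chromosomes were used, and an H3K4me3 interval repeated for several summits was counted once.

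For each of 21887 protein-coding RefSeq genes (GRCm38.p6, which has mm10 coordinates) the share of the span with 5 kb either side under peaks, and the log2 of the highest fold (1 where no peak), entered a linear model in limma 3.58.1 (R 4.3.3). Genes equal in all libraries were left out, and Benjamini-Hochberg adjusted p under 0.05 over all genes tested counted as called. H3K4me3 and H3K27me3 had 1 library per genotype, so a 1.5-fold difference in covered base pairs counted instead. Regions joined peaks overlapping by 1 bp or more. How well the fits detect differences of the sizes reported here was not tested.

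Members and lists were chosen with earlier results of these data known. The text names all members, from other lists the genes past the test or else a few in list order, neighbours within 100 kb and the 5 most similar profiles (some items are not reported here); Aldh3b3, Elovl3 and the genes whose groups did not overlap were named after their values were seen. Alternatives were other windows, stricter or equal-length lists, division by total covered length, other gene filters, leaving out each library and a replicate block.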

Additional observations from a re-analysis of the deposited data

How the results depend on the processing

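Peak lists carry no read depth, so what a stronger list or deeper library would show cannot be had from them, and short or weak peaks may come and go with list length. The count of called genes for H3K27ac covered share was 0 in every alternative except 1 with peaks limited to a −log10 q of at least 5. For H3K27ac highest fold it was 70, and 7 with that limit; leaving out single libraries gave 82 to 205. For PPARg covered share it was 2596, and 1524 over the gene span alone, 1012 with lists of equal length, 627 with no gene left out and 0 after division by total covered length; leaving out single libraries gave 0 (without either WT library) to 3147. For PPARg highest fold it was 2606, and 1605 with lists of equal length, 1729 with folds shifted to equal medians (chosen after seeing the data) and 1691 with no gene left out; leaving out single libraries gave 0 to 2635. For CTCF covered share it was 0, and 3 over the gene span and 59 with no gene left out, a setting in which limma's spread estimate is unreliable because most genes do not vary. For CTCF highest fold it was 755, and 287 with lists of equal length and 399 with no gene left out; leaving out single libraries gave 0 (without either KO library) to 1532. The H3K27me3 count of 2798 genes past 1.5-fold was 11 with the −log10 q limit. The causes were not tested.

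Differences of members turned direction in these cases: in H3K27ac, Gstm7 was 1.63 percentage points with a 10 kb window and Gstm2 −1.09 with the −log10 q limit; in PPARg after division by total length, Gstm2 was −1.80 and Gstm4 −1.23; in CTCF, Gstp2 was 0.15 with a 10 kb window and 2.05 with lists of equal length, where Gstm1 was 0.68. Gstm3 and Gstp1 in H3K27ac kept their direction in all 14 and 13 alternatives (4.65 to 33.0 and 5.25 to 13.8 points) and passed the test in none. Gstp1 has no value over the gene span, which was fully covered in every library. With the replicate block on numbers 2 and 4 of H3K27ac, the counts of called genes were 0 for covered share and 0 for highest fold, with only 4 libraries. Deviations of same-numbered libraries correlated at −0.20 and −0.17, while those of WT 2 with KO 4 and WT 4 with KO 2 correlated at 0.22 and 0.18. With so few libraries these values cannot tell whether the numbers pair the livers.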
